A study of Mus musculus with 20 samples.

Results

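The genes of eotaxin signalling and of eosinophils were followed through the preimplantation mouse uterus, in bulk RNA-seq of 20 mice in 4 groups of 5. The set holds 9 of the 45777 genes listed in the expression table, taken by symbol: the eotaxins Ccl11 and Ccl24, the receptors Ccr3, Siglecf and Il5ra, the granule genes Epx, Prg2 and Ear2, and the cytokine Il5. They were picked because of their levels across the same 4 groups, so their levels and the fitted differences between groups, with standard errors and intervals, are descriptions and no call is read from them. Of the 9, 6 (Ccl11, Ccr3, Siglecf, Il5ra, Prg2 and Ear2) were above 0 in all 20 libraries and entered the fit across 18706 genes. Ccl24, Epx and Il5 did not, and their levels are given as listed.

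All animals were wild-type B6D2F1 females aged 8 to 12 weeks, mated with males, and their uteri were taken at 18:00 on day 3.5, with the morning of the plug counted as day 0.5. Control mice were pregnant and received no treatment. IF (implantation failure) mice received RU486, an antagonist of the progesterone and glucocorticoid receptors, at 3 mg/kg under the skin on the morning of day 3.5. PBMC mice received the same RU486 after peripheral blood mononuclear cells, cultured for 24 h, had been placed in the uterine cavity on day 1.5 at 50000 cells per horn, and PBMC-hCG mice received cells cultured with 5 IU/mL human chorionic gonadotropin. Donor cells came from non-pregnant female mice, and their RNA cannot be told apart from that of the recipient. A cell-free group, which received medium containing hCG, was not analysed here, so the PBMC groups differ from IF by the procedure as well as by the cells. Values were in TPM, the share of a library's transcripts that a gene holds once its length is corrected for, and each library summed to between 999989 and 999999. The read depth behind a value is unknown. The uterine genes Esr1, Pgr, Hoxa10, Krt8 and Myh11 were above 0 in every mouse.

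Eotaxins are small secreted chemokines that bind CCR3, the main chemokine receptor of eosinophils, and so draw these granulocytes from blood into tissue. Eosinophils are a resident population of the rodent uterus whose number follows the ovarian hormones, and interleukin 5, read through IL5RA, sustains their production and survival. Siglec-F is an inhibitory surface lectin of mouse eosinophils, and their granules hold eosinophil peroxidase, major basic protein and ribonucleases.

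In the RU486 groups the eotaxin-1 transcript stood well above control, whereas the eosinophil genes lay at levels that overlapped between all groups. Ccl11 averaged 18.1 TPM ± 1.29 (SD, n = 5) in control and 87.5 ± 18.4 in IF. It averaged 72.0 ± 28.5 in PBMC and 46.5 ± 13.3 in PBMC-hCG. Siglecf, by contrast, lay between means of 3.50 and 4.88 TPM in the 4 groups, and Ccr3 between 5.89 and 7.98 TPM. In bulk tissue fewer cells of a type and less RNA per cell cannot be told apart.

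The ligand Ccl11 (NCBI gene 20292) lies on the forward strand at chr11:82057832-82062955 (GRCm38.p6). Its coding sequence, 294 bases in 3 exons between chr11:82057967-82062311 in GENCODE M21 (GRCm38), is printed because this member had the highest mean level of the 9 and was above all control mice in every RU486-treated mouse. The capitals mark codons 32 and 33, the adjacent cysteine codons after which the CC chemokines are named. The longest run of bases that transcripts of Ccl11 and Ccl24 share is 11.
Ccl11 coding sequence: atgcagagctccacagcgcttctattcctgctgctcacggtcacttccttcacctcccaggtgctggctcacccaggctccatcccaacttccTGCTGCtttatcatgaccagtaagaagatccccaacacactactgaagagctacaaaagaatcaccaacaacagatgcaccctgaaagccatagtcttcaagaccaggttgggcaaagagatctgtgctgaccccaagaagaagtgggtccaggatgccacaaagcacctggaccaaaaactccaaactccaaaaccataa

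Control mice 1 to 5 had 18.3, 18.3, 18.5, 19.5 and 15.99 TPM of Ccl11, and IF mice had 80.1, 102, 59.8, 105 and 90.5 TPM. In the PBMC group the values were 61.8, 54.9, 69.2, 52.4 and 122 TPM, and in the PBMC-hCG group 69.6, 42.6, 36.2, 44.7 and 39.2 TPM. Every RU486-treated mouse was above every control mouse, and the control values were the tightest of the 4 groups, with the highest 1.22 times the lowest. PBMC replicate 5 and PBMC-hCG replicate 1 stood above the other mice of their groups.

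On the log2 scale of TPM + 0.1, Ccl11 was 2.24 ± 0.21 (SE) higher in IF than in control, a 4.73-fold difference with a 95% interval of 1.81 to 2.67. PBMC mice differed from IF by -0.33 ± 0.21, with an interval of -0.76 to 0.11, and their ranges overlapped. The PBMC-hCG group was 1.90-fold below IF, a log2 difference of -0.92 ± 0.21 with an interval of -1.36 to -0.49, and 4 of its 5 mice were below the lowest IF mouse. Against PBMC it differed by -0.60 ± 0.21, with an interval of -1.03 to -0.16, and 4 of 5 mice were below the lowest PBMC mouse. Without PBMC replicate 5, PBMC differed from IF by -0.53 and PBMC-hCG from PBMC by -0.39. In the order IF, PBMC, PBMC-hCG and control, only the step from PBMC-hCG to control (28.4 TPM) was larger than the SD of either neighbour. Among the 6 members in the fit, the groups IF and control did not overlap for 1, Ccl11, as for 12.8% of all tested genes (8.55% with IF higher). Ccl11 was chosen on this contrast, and nothing is read from that count.

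Ccl24, the eotaxin-2 gene (NCBI gene 56221, chr5:135569935-135573123), was scarce and had its highest mean in control. Control mice had 0.392, 0.503, 0.406, 0.463 and 0.457 TPM, and IF mice 0.230, 0, 0.255, 0.263 and 0.249 TPM. PBMC mice had 0.512, 0, 0.348, 0.505 and 0.155 TPM, and PBMC-hCG mice 0.274, 0, 0.183, 0.209 and 0.149 TPM. Each control mouse was above each IF mouse and each PBMC-hCG mouse, while the PBMC group overlapped both. The gene was listed at 0 in 3 mice, and no neighbouring groups in the order of means (control, PBMC, IF, PBMC-hCG) differed by more than the larger SD.

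**Figure D1:**
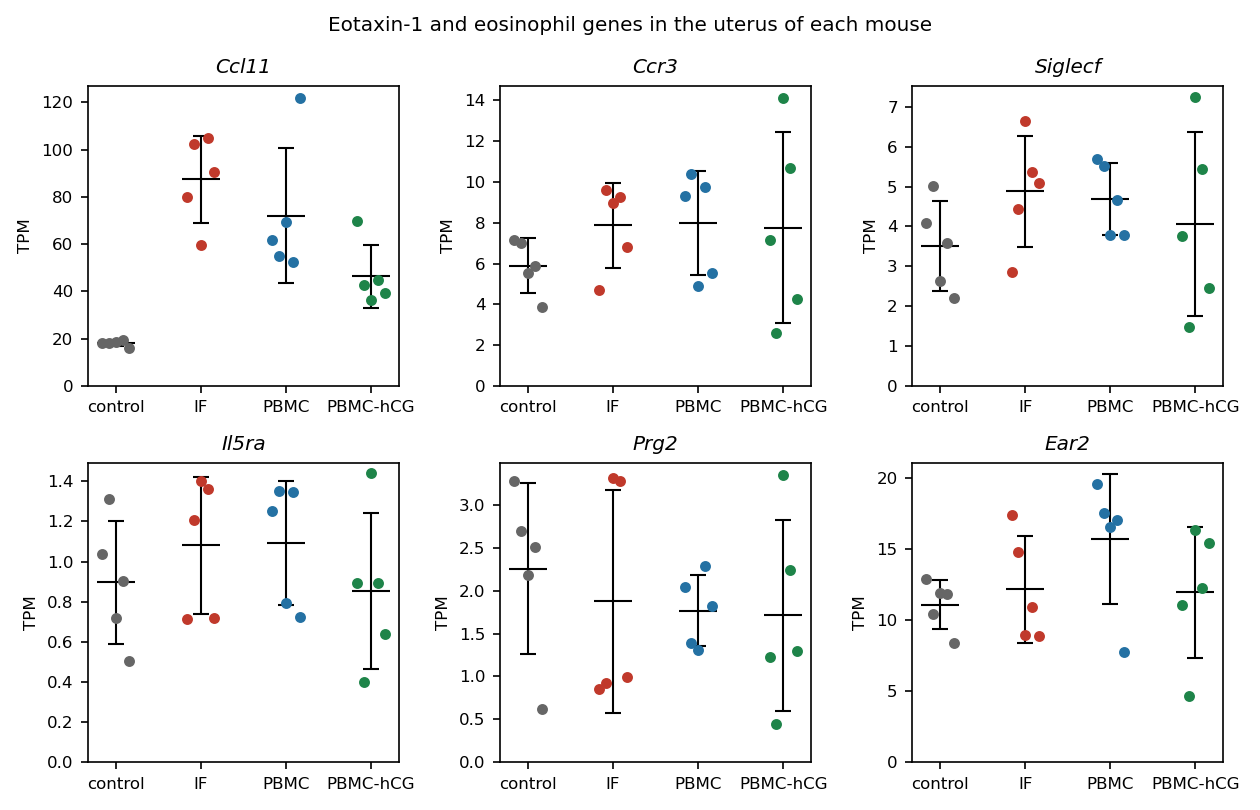
Levels of the 6 members that were above 0 in all 20 libraries, in TPM on linear axes from 0, by group. Points are single mice in replicate order, horizontal bars are means and whiskers SDs of 5 mice. Ccl11 is apart from control in every RU486-treated mouse, from 36.2 TPM upwards, while each other gene overlaps between all groups.

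Of the receptors, Ccr3 (NCBI gene 12771, chr9:124017825-124031692) had 7.16, 7.02, 5.56, 5.88 and 3.85 TPM in control mice and 4.72, 9.59, 8.99, 9.25 and 6.83 TPM in IF mice. It had 9.30, 10.4, 4.89, 9.77 and 5.56 TPM in PBMC mice and 7.18, 2.60, 14.1, 10.7 and 4.24 TPM in PBMC-hCG mice. All groups overlapped, and the highest and the lowest of the 20 values were both PBMC-hCG mice. IF was 0.40 ± 0.36 (SE) above control on the log2 scale, with a 95% interval of -0.36 to 1.16. PBMC differed from IF by 0.00048 with an interval of -0.76 to 0.76, and PBMC-hCG by -0.21 with an interval of -0.97 to 0.54, which became 0.11 without PBMC-hCG replicate 2.

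Siglecf (NCBI gene 233186, chr7:43351341-43359475) had 4.08, 5.02, 2.63, 3.58 and 2.20 TPM in control mice and 2.85, 4.44, 6.65, 5.37 and 5.09 TPM in IF mice. The PBMC values were 5.68, 5.52, 3.79, 4.66 and 3.77 TPM and the PBMC-hCG values 3.75, 1.48, 7.23, 5.43 and 2.46 TPM. As for Ccr3, PBMC-hCG replicates 3 and 2 were the highest and the lowest of the 20 mice. The IF group was 0.47 ± 0.34 above control (interval -0.23 to 1.18), and PBMC-hCG was -0.40 ± 0.34 from IF (interval -1.11 to 0.30). PBMC and IF differed by -0.03, with an interval of -0.73 to 0.67.

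The interleukin 5 receptor gene Il5ra (NCBI gene 16192, chr6:106710375-106749037) was low throughout, between 0.400 and 1.44 TPM. Its means were 0.896 TPM ± 0.307 (SD, n = 5) in control, 1.08 ± 0.340 in IF, 1.09 ± 0.309 in PBMC and 0.854 ± 0.387 in PBMC-hCG. IF exceeded control by 0.25 on the log2 scale, with an interval of -0.36 to 0.87, and PBMC-hCG differed from IF by -0.35 with an interval of -0.97 to 0.26. Its ligand gene Il5 (NCBI gene 16191, chr11:53720794-53725103) was listed at 0 in 8 of 20 mice and reached 0.325 TPM at most. By group, Il5 was listed at 0 in 1 control, 3 IF, 4 PBMC and no PBMC-hCG mice.

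The granule genes were mixed in abundance. Ear2 (NCBI gene 13587, chr14:44102654-44103531), an eosinophil-associated ribonuclease, was the most abundant of them, with means of 11.1 TPM ± 1.74 in control, 12.2 ± 3.77 in IF, 15.7 ± 4.60 in PBMC and 12.0 ± 4.62 in PBMC-hCG. PBMC exceeded IF by 0.35 on the log2 scale for this gene, with an interval of -0.28 to 0.98, and 1 PBMC mouse (7.74 TPM) was below all IF mice. Ear2 shares a run of 185 identical bases with Ear10 and of 96 with Ear1, so its level is uncertain where reads could have been assigned to either copy.

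Prg2 (NCBI gene 19074, chr2:84980461-84983632), which encodes major basic protein, averaged 2.26 TPM ± 0.994 in control, 1.87 ± 1.30 in IF, 1.77 ± 0.418 in PBMC and 1.71 ± 1.11 in PBMC-hCG. The IF mice comprised a low set of 0.858, 0.927 and 0.999 TPM and a high set of 3.31 and 3.27 TPM, and the group differed from control by -0.34 ± 0.49 on the log2 scale with an interval of -1.37 to 0.69. Epx (NCBI gene 13861, chr11:87863997-87875536), the eosinophil peroxidase gene, was listed at 0 in 16 of 20 mice. Its highest value was 0.106 TPM, in a control mouse, so this defining granule transcript was listed at or near 0 while Siglecf, Ccr3, Il5ra and Prg2 were above 0 in all 20 libraries.

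From mouse to mouse inside a group, the eosinophil genes varied together, Ear2 least closely. Promoter sequence was compared as a separate description, and its part in this was not tested. The promoters of Ccr3, Siglecf, Il5ra and Ear2, from 250 bases before to 50 after the start site, are printed 5′ to 3′ on the strand of the gene from RefSeq (GRCm38.p6). They span chr9:124021721-124022020, chr7:43351091-43351390, chr6:106748988-106749287 (reverse strand) and chr14:44102404-44102703. The Ccr3 window lies inside the gene, around an internal start site and not at the listed gene start (chr9:124017825). The other windows lie at the listed start of their genes. Capitals mark GATAA, the core letters bound by GATA factors, which direct the eosinophil lineage, or TTATC, the same letters on the opposite strand.
Ccr3 promoter: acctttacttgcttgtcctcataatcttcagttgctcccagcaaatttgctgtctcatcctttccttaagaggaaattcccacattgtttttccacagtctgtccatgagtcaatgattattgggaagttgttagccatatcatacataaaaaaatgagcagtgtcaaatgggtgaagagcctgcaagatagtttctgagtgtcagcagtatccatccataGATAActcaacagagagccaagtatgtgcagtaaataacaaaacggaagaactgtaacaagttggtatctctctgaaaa
Siglecf promoter: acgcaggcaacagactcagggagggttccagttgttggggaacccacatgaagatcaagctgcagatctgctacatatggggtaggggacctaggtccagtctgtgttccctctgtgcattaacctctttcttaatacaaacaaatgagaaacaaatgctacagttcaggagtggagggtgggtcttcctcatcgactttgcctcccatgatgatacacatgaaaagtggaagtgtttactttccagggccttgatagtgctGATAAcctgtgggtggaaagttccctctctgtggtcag
Il5ra promoter: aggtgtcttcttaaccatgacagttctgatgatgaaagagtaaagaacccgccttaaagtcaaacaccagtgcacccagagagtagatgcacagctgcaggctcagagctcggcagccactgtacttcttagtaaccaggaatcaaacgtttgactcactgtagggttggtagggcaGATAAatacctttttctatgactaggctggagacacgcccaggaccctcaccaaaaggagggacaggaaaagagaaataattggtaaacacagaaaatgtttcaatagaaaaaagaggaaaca
Ear2 promoter: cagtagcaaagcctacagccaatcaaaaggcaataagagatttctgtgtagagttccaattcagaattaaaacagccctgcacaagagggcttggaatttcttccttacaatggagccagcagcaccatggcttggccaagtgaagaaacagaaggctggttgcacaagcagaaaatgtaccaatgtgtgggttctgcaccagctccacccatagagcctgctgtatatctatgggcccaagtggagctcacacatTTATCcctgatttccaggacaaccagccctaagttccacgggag

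Relative to the start site of each window, internal to the gene for Ccr3, the match began at position -29 in Ccr3 and 13 in Siglecf. It began at -73 in Il5ra and at 7, on the opposite strand, in Ear2. Promoter entries were matched for 6 members (these 4, Epx and Il5). Of these, the 4 that are printed held GATAA on either strand, against 25.4% of all 32851 promoters of the same length. The STAT6 letters TTCNNNNGAA were found in 2 of 6, Epx and Il5ra, against 6.95% of all promoters. These matches describe letters in the window and carry no test.

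After subtraction of group means, Siglecf and Ccr3 correlated across the 20 mice with r = 0.93, Ccr3 and Il5ra with r = 0.91 and Siglecf and Il5ra with r = 0.88. Prg2 followed with r between 0.75 and 0.80 against the same 3 genes. Ear2 was looser, with r between 0.34 and 0.51 against the other 4. The points share a library and its composition, so these are descriptions. PBMC-hCG was the most dispersed group, in which the highest mouse exceeded the lowest 5.44-fold for Ccr3, 4.88-fold for Siglecf, 7.48-fold for Prg2, 3.60-fold for Il5ra and 3.49-fold for Ear2. In all 5 genes the same pair of mice set these extremes, replicate 3 high and replicate 2 low. The summed TPM of 8 neutrophil markers in these 2 mice was also the highest and lowest of the 20, 360 and 62.5 TPM. That sum ranged from 75.2 to 172 TPM in control, 104 to 211 TPM in IF and 141 to 264 TPM in PBMC, and most of it was Retnlg, up to 345 TPM in a mouse, whereas the granule markers Ngp and Camp were each listed at 0 in 17 of 20 mice. The sum of 8 macrophage markers ran the other way in these 2 mice. It was 1267 TPM in replicate 3, the lowest of the PBMC-hCG group, and 1806 TPM in replicate 2, the highest of the 20. The part of either sum in the result was not tested.

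Whether mice with more eotaxin had more eosinophil transcript was tested for 10 pairs, 2 eotaxins against 5 eosinophil genes, on log2 deviations from the group mean by permuting mice within groups (100000 permutations, two-sided). Ccl11 gave r = -0.15 with Siglecf (p = 0.583, Spearman rho = -0.17, p = 0.501) and r = -0.16 with Ccr3 (p = 0.593, rho = -0.22, p = 0.407). For these pairs the Benjamini-Hochberg adjusted permutation p over the 10 relations was 0.659 for r and 0.657 for rho. The other 3 genes gave r between -0.31 and -0.10 with Ccl11. Without PBMC replicate 5 and PBMC-hCG replicate 1, the mice farthest in Ccl11, r was -0.14 for Siglecf and -0.10 for Ccr3. Ccl24 and Prg2 gave r = 0.42 (permutation p = 0.0442, adjusted p = 0.442) and rho = 0.34 (permutation p = 0.114, adjusted p = 0.513), which did not pass the correction. Without IF replicate 2 and PBMC replicate 2, both listed at 0 for Ccl24, r of Ccl24 with the 5 genes lay between 0.42 and 0.63. The third mouse at 0, PBMC-hCG replicate 2, was the lowest of its group for all 5 genes, and without it alone r of Ccl24 was 0.04 with Siglecf, -0.13 with Ccr3, -0.05 with Il5ra, -0.09 with Ear2 and 0.25 with Prg2. None of the 10 relations had an adjusted p below 0.05.

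**Figure D2:**
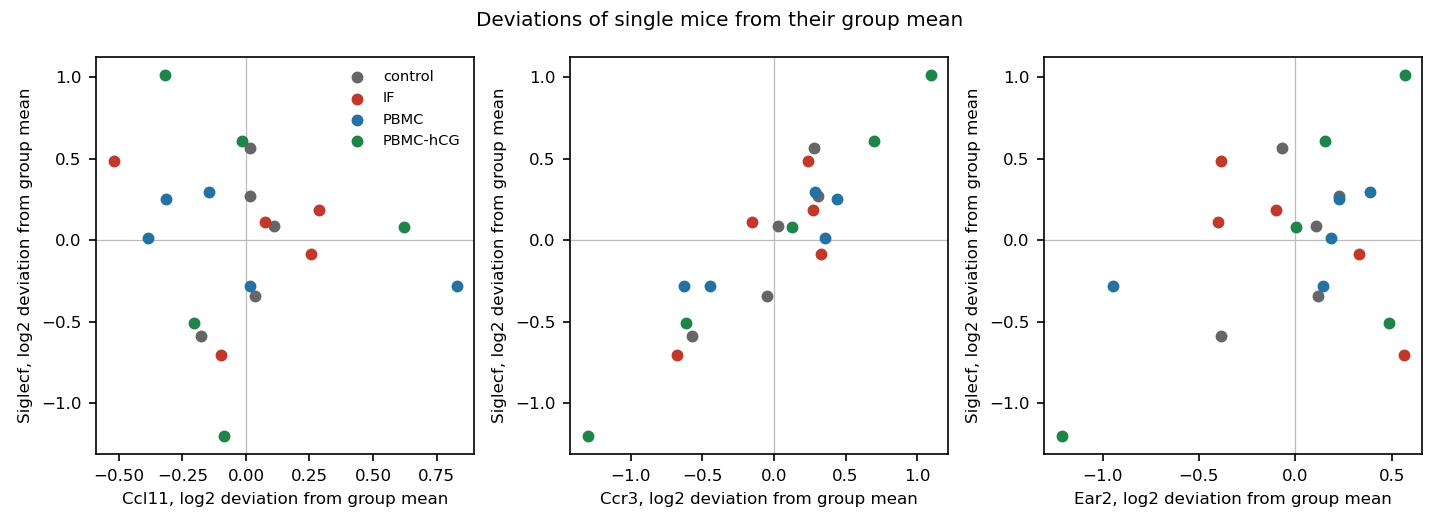
Deviation of each of the 20 mice from its group mean, in log2 of TPM + 0.1, for Siglecf (vertical axis) against Ccl11, Ccr3 and Ear2 (horizontal axes), coloured by group. Points for Ccr3 follow a line (r = 0.93), those for Ear2 scatter more widely (r = 0.40) and those for Ccl11 show no slope beyond r = -0.15.

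Genes with the most similar course over the 20 mice were sought among 15766 genes by Pearson correlation of log2 values, which includes the group differences. For Ccl11 they were Dio2 (r = 0.975), a thyroid hormone-activating deiodinase, Arl4c (0.966), Itgb3 (0.966), P2ry14 (0.965) and Foxo1 (0.964). For Siglecf they were P2rx1 (0.887), Cebpe (0.872), a transcription factor of granulocyte maturation, Adam8 (0.869), Gapt (0.869) and Rab44 (0.863). Ccl24 had weaker neighbours, led by Ndufa13 (0.770) and Kctd15 (0.706).

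Markers of other cell types were summed in each mouse. The summed TPM of 5 pan-leukocyte markers had a median of 264 (range 243 to 303) in control and 337 (307 to 354) in IF. The median was 352 (276 to 372) in PBMC and 362 (292 to 385) in PBMC-hCG. By limma 3 of the 5 genes were higher in IF than in control at an adjusted p under 0.05, beside 13.4% of all tested genes. Per unit of the leukocyte sum, the log2 difference between IF and control was 1.93 for Ccl11, 0.17 for Siglecf, 0.09 for Ccr3, -0.06 for Il5ra, -0.21 for Ear2 and -0.65 for Prg2. The part of leukocyte content in these differences was not tested. The stromal sum had medians of 6010, 7576, 8192 and 8085 TPM in control, IF, PBMC and PBMC-hCG, and the epithelial sum 587, 751, 869 and 1024 TPM. Smooth muscle markers of the myometrium had medians of 5684, 4143, 4411 and 3415 TPM, and red cell markers 727, 1084, 1073 and 405 TPM. The myometrial and red cell sums overlapped between control and IF, with 1 of 5 and 0 of 5 genes called, beside 21.9% of all tested genes. No marker of any list was called in PBMC against IF or in PBMC-hCG against PBMC. In IF against control 4 of 5 epithelial, 1 of 4 tested neutrophil and 1 of 8 macrophage genes were called higher, beside 13.4% of all tested genes. PBMC-hCG against IF had 2 of 5 red cell genes called lower (median log2 fold change of the list -1.04), beside 5.99% of all. In the same comparison 2 of 7 stromal and 1 of 5 epithelial genes were called higher, beside 7.61% of all. The part of these markers in the group differences was not tested. The stromal sums of control and IF did not overlap (4579 to 6305 and 6548 to 7870 TPM), with all 7 genes above 0 in every mouse. Of these genes 2 were called higher and 2 lower, beside 13.4% and 8.53% of all tested genes. The part of the stromal sums in the Ccl11 difference was not tested.

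The remaining genes of eotaxin and eosinophil biology were taken from 8 lists with 77 genes, of which 62 were tested. The lists were chosen with earlier results of these data known. Their counts beside the shares of all genes are therefore descriptions, and no excess is read from them. In IF against control 18 of 62 (29.0%) passed the adjusted p threshold of limma, 17 higher and 1 lower, beside 21.9% of all tested genes (13.4% higher and 8.53% lower), and their median log2 fold change was 0.23 beside 0.022 for all. No gene of the 62 was called in PBMC against IF, where 4 had an unadjusted p under 0.05 (6.79% of all tested genes had) and 0% of all tested genes were called. PBMC-hCG against IF gave 12 of 62 (19.4%), 1 higher and 11 lower, beside 13.6% of all (7.61% higher and 5.99% lower), and 23 had an unadjusted p under 0.05, beside 35% of all. The direct comparison of PBMC-hCG with PBMC gave 0 in limma, beside 0.0107% of all, with 13 at an unadjusted p under 0.05, beside 16.2% of all. The criteria of the study, a fold change of at least 2 and an unadjusted p under 0.05, were applied to the limma values. The study itself tested counts with edgeR, so only the cut-offs are the same. With them the counts in the 4 comparisons were 6, 1, 4 and 1 of 62, beside 4.03%, 0.438%, 2.31% and 0.893% of all. All comparisons with IF share the 5 IF mice, and the signs of IF against control and PBMC-hCG against IF are tied through them.

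**Figure D3:**
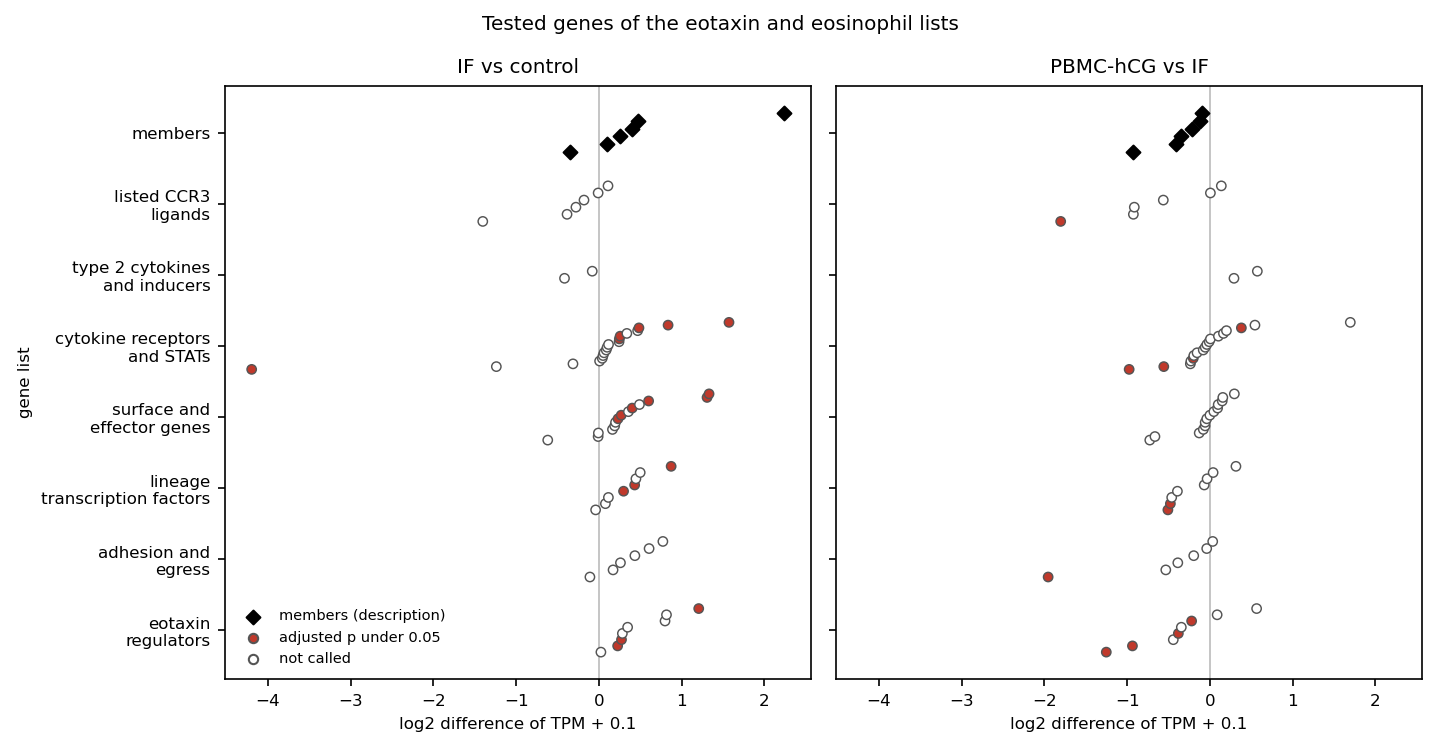
Log2 difference of TPM + 0.1 for the tested genes of each list and for the 6 members, in IF against control (left) and PBMC-hCG against IF (right). Each symbol is a gene, diamonds are the members, whose fitted differences are given as descriptions, and filled circles are genes with an adjusted p under 0.05. Ccl11 is the rightmost diamond at 2.24 on the left and the leftmost at -0.92 on the right, and 17 of 18 called genes lie above 0 on the left and 11 of 12 below 0 on the right.

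A further 6 chemokine genes had been listed as CCR3 ligands, although in mice Ccl2 and Ccl12 act mainly through CCR2, and Ccl8 through CCR8. None was called in IF against control, where 1 had an unadjusted p under 0.05, beside 33.9% of all tested genes. Ccl8, which neighbours Ccl11 on chromosome 11 with Ccl2, Ccl7 and Ccl12, was the most abundant at 272 TPM ± 57.8 in control and 237 ± 35.4 in IF, a log2 fold change of -0.18 (adjusted p = 0.441). Ccl5 was at 27.5 ± 21.0 and 26.5 ± 8.96 TPM in control and IF, and control replicate 2 had 65.0 TPM, beside 16.9 to 19.7 TPM in the other controls. Ccl28, an epithelial chemokine, was at 4.08 ± 2.85 TPM in control and 1.36 ± 0.859 in IF (log2 fold change -1.40, adjusted p = 0.0548).

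In PBMC-hCG against IF, Ccl7 was the 1 of these 6 chemokines called. IF mice had 11.5, 12.3, 2.87, 20.4 and 14.7 TPM of Ccl7 and PBMC-hCG mice 5.74, 2.31, 2.32, 1.44 and 4.64 TPM, and the groups overlapped through IF replicate 3. Its log2 fold change was -1.80 ± 0.59 (adjusted p = 0.0499), with 3 of 5 PBMC-hCG mice below all IF mice. Ccl2 and Ccl12 gave log2 fold changes of -0.91 (adjusted p = 0.0862) and -0.93 (adjusted p = 0.0954). Ccl5, Ccl8 and Ccl28 gave 0.01, 0.14 and -0.56.

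**Figure D4:**
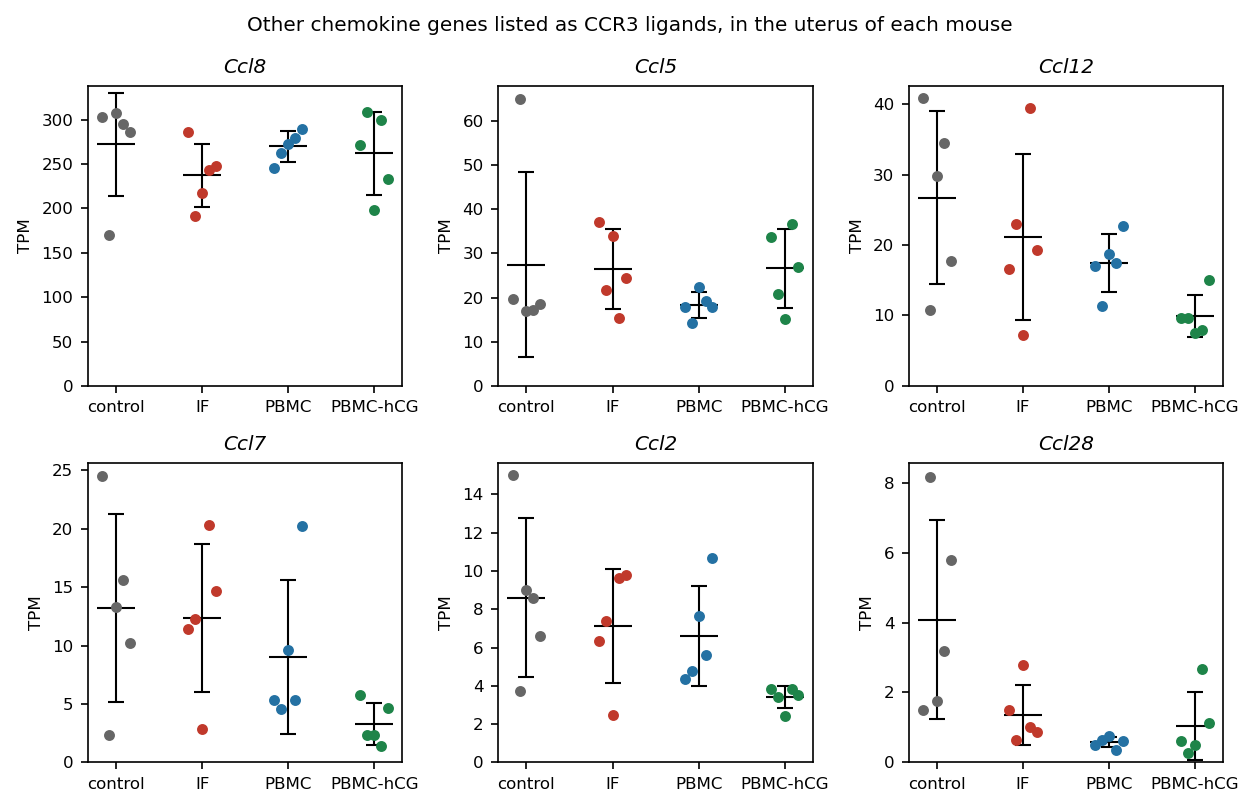
Levels of the 6 other chemokine genes listed as CCR3 ligands in TPM, on linear axes from 0, by group. Points are single mice, horizontal bars means and whiskers SDs of 5 mice. Ccl8 is the highest of the 6 in every group, with means from 237 to 272 TPM, and the Ccl7 values of PBMC-hCG mice reach 5.74 TPM at most.

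The receptors of type 2 cytokines held both the largest rise and the largest fall of the lists in IF against control. Il13ra2, the decoy receptor that removes interleukin 13, fell from 42.2 TPM ± 9.99 (SD, n = 5) to 2.22 ± 0.560, a log2 fold change of -4.20 ± 0.25 (adjusted p = 2.84e-09, 5 of 5 mice below control). Il4ra, the signalling chain shared by the interleukin 4 and 13 receptors, rose from 51.5 ± 5.07 to 158 ± 47.7 TPM, with a log2 fold change of 1.57 ± 0.21 (adjusted p = 3.15e-05, 5 of 5 above control). Stat5a (0.84), Crlf2 (0.49), the receptor chain for thymic stromal lymphopoietin, Stat5b (0.26) and the common gamma chain Il2rg (0.25) were also higher, so that 5 of 18 receptors and STATs rose and 1 fell. The cytokines themselves were scarce. Il13, Il9 and Il3 were listed at 0 in every mouse, and Il4 and Csf2 reached 3.02 and 0.654 TPM at most, genes singled out after their values were seen.

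Receptors for lipid mediators led the 14 tested surface and effector genes, of which 6 rose in IF against control. Ptgdr2, the CRTH2 receptor for prostaglandin D2 found on eosinophils and type 2 lymphocytes, went from 1.82 ± 0.350 to 4.79 ± 1.14 TPM, a log2 fold change of 1.33 (adjusted p = 0.000106). Cysltr2, a cysteinyl leukotriene receptor, went from 1.12 ± 0.137 to 2.94 ± 0.585 TPM, a log2 fold change of 1.31 (adjusted p = 2.37e-06). In both genes all 5 IF mice were above all control mice. Itga4 (0.60), an integrin chain that binds VCAM1, Ltc4s (0.40), the leukotriene C4 synthase gene, Fcgr3 (0.27) and Adgre1 (0.23) followed on the log2 scale. Adgre1 and Fcgr3 are also expressed by macrophages, whose 8 markers summed to medians of 1321 TPM in control and 1399 TPM in IF.

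Of the 8 lineage transcription factors, 3 rose in IF against control. Zfpm1, the GATA cofactor FOG-1, rose from 10.97 ± 0.913 to 20.3 ± 2.66 TPM (log2 fold change 0.87, adjusted p = 0.000456). Xbp1 and Cebpa gave log2 fold changes of 0.43 (adjusted p = 0.0119) and 0.30 (adjusted p = 0.0417). Among 8 regulators of eotaxin level, 3 rose. Socs1, an inhibitor of cytokine signalling, rose from 10.98 ± 1.59 to 28.0 ± 14.0 TPM (log2 fold change 1.21, adjusted p = 0.00776), and the NF-kappaB genes Rela and Nfkb1 gave 0.27 and 0.23. None of the 6 tested adhesion genes was called, with 3 at an unadjusted p under 0.05. The share called was 33.3% of receptors and STATs, 42.9% of surface and effector genes and 37.5% in each of the lineage and regulator lists, beside 21.9% of all tested genes (33.9% at an unadjusted p under 0.05), and in lists of this size nothing is read as particular to a list.

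Leaving out single mice left 12 of the 18 called genes past the threshold every time. The other 6 (Ltc4s, Cebpa, Fcgr3, Stat5b, Il2rg and Adgre1) lost the call in some of these fits, with adjusted p up to 0.127, and PBMC replicate 5 was the one mouse whose omission cost no call.

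In PBMC-hCG mice several of the genes that were higher in IF were lower again, and others were not. Ptgdr2, Cysltr2, Itga4, Ltc4s and Nfkb1 gave log2 fold changes of 0.16, -0.08, -0.06, 0.05 and 0.09 against IF, none called. Cebpa, Fcgr3, Stat5b, Il2rg and Adgre1 gave -0.07, -0.0002, 0.10, -0.01 and 0.09, also not called. Il13ra2 averaged 3.30 TPM, beside 2.22 in IF and 42.2 in control, and was not called against IF. Il4ra was at 80.4 TPM ± 24.3 beside 158 ± 47.7 in IF (log2 fold change -0.98, adjusted p = 0.0258, 4 of 5 mice below all IF mice). Stat5a gave -0.56 (adjusted p = 0.0258), Socs1 -0.94 (adjusted p = 0.0480), Zfpm1 -0.51 (adjusted p = 0.0407), Xbp1 -0.48 (adjusted p = 0.0287), Rela -0.22 (adjusted p = 0.0472) and Crlf2 -0.20 (adjusted p = 0.0390). Socs3, an inhibitor of gp130 signalling, fell from 78.0 ± 39.2 to 30.3 ± 5.26 TPM (log2 fold change -1.25, adjusted p = 0.0386), with all 5 mice below IF. Sele, the endothelial E-selectin that catches leukocytes, was at 3.08 ± 1.58 TPM in IF and 0.670 ± 0.323 TPM in PBMC-hCG (log2 fold change -1.96, adjusted p = 0.0438). Nfkbia gave -0.38 (adjusted p = 0.0444), and Il1rap, the accessory chain of the interleukin 33 receptor, was the only called gene that rose (0.38, adjusted p = 0.0390).

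The adjusted p of these 12 calls in limma ran from 0.0258 to 0.0499, and each call was lost in some fits that left out a mouse. Leaving out IF replicate 2, 4 or 5 or PBMC-hCG replicate 2, 3, 4 or 5 left 0 of the 62 genes called, with adjusted p of the 12 up to 0.158, while leaving out control replicate 1 or PBMC replicate 3 left 7. Calls over all 18706 tested genes, 2544 with every mouse, fell to 8, 14 and 0 without IF replicate 2, 4 or 5. Without PBMC-hCG replicate 2 they fell to 1, and without control replicate 1 or PBMC replicate 3 to 2030 and 1837. The loss was thus not particular to the 12 genes.

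By group means, PBMC mice without hCG lay between IF and PBMC-hCG for Stat5a, Zfpm1, Il17rb, Il4ra and Xbp1. They lay above both groups for Vcam1, and below both for Dpp4, Ptgdr2 and Adgre1. No list gene passed the correction in PBMC against IF or in PBMC-hCG against PBMC. Against IF, the genes with the lowest unadjusted p were Stat5a (log2 fold change -0.44, adjusted p = 0.433), Zfpm1 (-0.41, adjusted p = 0.701), Il17rb (1.71, adjusted p = 0.701), Vcam1 (0.28, adjusted p = 0.731) and Il4ra (-0.43, adjusted p = 0.742) in limma. In PBMC-hCG against PBMC they were Xbp1 (-0.40, adjusted p = 0.264), Il4ra (-0.55, adjusted p = 0.283), Dpp4 (0.66, adjusted p = 0.283), a protease that trims eotaxin, Ptgdr2 (0.52, adjusted p = 0.283) and Adgre1 (0.20, adjusted p = 0.283).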

How the data were processed

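Poly(A) RNA of 20 uteri was sequenced from stranded libraries. The authors trimmed reads with Trimmomatic, aligned them to mm10 with HISAT2 and estimated TPM per gene with StringTie (per the labels and the study's methods). Versions and strand setting are not given in the sources used here. The deposited values are TPM, so no count model was used. The members and the 8 gene lists were chosen with earlier results of these data known.

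Genes above 0 in all 20 libraries (18706 of 45777) were tested on log2(TPM + 0.1) with limma 3.58.1 in R 4.3.3, one model of 4 group means with a variance trend and Benjamini-Hochberg adjustment at 0.05. A fold change on this scale understates the change of low genes. The same script was tested on simulated data. Replicates are separate mice. Named genes were the 9 members, the other listed CCR3 ligands and, per comparison, up to 20 called list genes with a mean of at least 1 TPM, by size of change, or else the 5 with the lowest unadjusted p. Groups were taken from the labels, which name no sequencing batch. Relations were tested by permutation within groups (Python 3.11.15, numpy 2.4.6). Alternatives were the pseudocount (0.01 and 1), no filter or a mean of at least 1 TPM, quantile normalization, median centring, no variance trend, only the 2 groups compared, a replicate block and each mouse left out. The study's criteria (a fold change of at least 2 and an unadjusted p under 0.05) were a further alternative, applied to the limma values. Gene positions and promoters came from RefSeq (GRCm38.p6), in which all 9 members matched by gene ID.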

Additional observations from a re-analysis of the deposited data

Results flagged for a closer look

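Within groups of 5 mice, 8 of 58 sets of values of a member or another listed chemokine held 1 mouse far from the rest (gap over range above the Dixon critical value of 0.71). Chance gives about 1 in 20 for independent, continuous values, a rate that does not carry over to these sets, since genes share mice and sets such as Il5 hold many values of 0. Ccl11 was 122 TPM in PBMC replicate 5, with the other PBMC mice between 52.4 and 69.2 TPM. In PBMC-hCG replicate 1 it was 69.6 TPM, with the others between 36.2 and 44.7 TPM. Ear2 was 7.74 TPM in PBMC replicate 5, below the 16.6 to 19.6 TPM of the other 4. Il5 was 0.139 TPM in this same mouse and listed at 0 in the rest of its group. Ccl24 was 0 in IF replicate 2, beside 0.230 to 0.263 TPM. Control replicate 2 had 65.0 TPM of Ccl5, beside 16.9 to 19.7 TPM, and 170 TPM of Ccl8, beside 286 to 307 TPM. Ccl12 was 15.1 TPM in PBMC-hCG replicate 5, beside 7.53 to 9.70 TPM.

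PBMC replicate 5 had the highest Ccl11 and the lowest Ear2 of its group. Its marker sums also stood apart, with 276 TPM for leukocytes beside 324 to 372 TPM in the other PBMC mice, 6997 TPM for stroma beside 7917 to 8560 TPM and 1044 TPM for epithelium beside 805 to 902 TPM, and their part was not tested. Without this mouse the log2 difference of Ccl11 between PBMC and IF was -0.53, compared with -0.33 for all mice, and that between PBMC-hCG and PBMC was -0.39, compared with -0.60. Without PBMC-hCG replicate 1 the difference of Ccl11 between PBMC-hCG and IF was -1.08, compared with -0.92.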

How the results depend on the processing

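The log2 differences of the 6 fitted members moved by less than 1 residual SD under all alternatives. Ccl11 in IF against control ranged from 2.17 to 2.37 when single mice were left out and from 2.16 to 2.25 under the other settings, and in PBMC-hCG against IF from -1.08 to -0.84 and from -0.99 to -0.89. Counts of list genes moved more. In IF against control 18 calls became 10 when only the 2 groups were fitted and 6 by the study's criteria, and ranged from 14 to 19 with single mice left out. For PBMC against IF and for PBMC-hCG against PBMC the count of 0 became 1 by the study's criteria and was 0 to 0 with single mice left out. In PBMC-hCG against IF 12 calls became 3 without the filter on low values (72 genes tested), 7 without the variance trend and 4 by the study's criteria, and ranged from 0 to 18 with single mice left out, with 18 without control replicate 2. Of the 12, none kept its call in every leave-one-out fit. Over all tested genes the 2544 calls of this comparison became 0 without IF replicate 5. The causes were not tested. Over all tested genes, quantile normalization gave 2161 higher and 2093 lower calls in IF against control, beside 2509 and 1595, and median centring 1054 higher and 1620 lower in PBMC-hCG against IF, beside 1423 and 1121. The differences of the eosinophil members had intervals that span 0, and 10 of the 24 member differences took both signs when single mice were left out. No called difference reversed its direction under the alternatives run. The 10 relations with the eotaxins had no adjusted p under 0.05 under any alternative (lowest 0.237).

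The replicate numbers are shared between groups, but same-numbered mice mostly did not deviate together. Their correlations ranged from -0.247 to 0.16 for numbers 1 to 4 and from -0.09 to 0.457 for number 5. In all, 2 of 20 mice correlated best with a mouse of their own number. A replicate block gave 15, 0, 11 and 0 called list genes in IF against control, PBMC against IF, PBMC-hCG against IF and PBMC-hCG against PBMC, beside 18, 0, 12 and 0 without it. Over all tested genes the block gave 4153, 0, 3215 and 2 calls in the same order, beside 4104, 0, 2544 and 2 without it. Depth could not be read from TPM, which limits what can be said of genes near 0 such as Epx, Il5 and Ccl24.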

Other observations

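The granule and ribonuclease genes beside the members were near the floor of these libraries. Of 7 (Ear1, Ear6, Ear10, Ear14, Prg3, Rnase2a and Rnase2b) none was above 0 in all 20 libraries. Ear14 and Prg3 were listed at 0 in every mouse, Rnase2a reached 2.44 TPM, Ear6 0.929 TPM, Rnase2b 0.577 TPM, Ear1 0.568 TPM and Ear10 0.398 TPM. Il4, a cytokine of type 2 immunity, averaged 1.26 TPM ± 0.468 (SD, n = 5) in control, 1.92 ± 0.718 in IF, 1.73 ± 0.807 in PBMC and 1.07 ± 0.905 in PBMC-hCG, with the groups overlapping and 1 PBMC-hCG mouse listed at 0.

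Ccl2, Ccl7 and Ccl12, neighbours of Ccl11 on chromosome 11, had their lowest control values in replicate 2 (3.75, 2.39 and 10.8 TPM) and their lowest IF values in replicate 3 (2.45, 2.87 and 7.21 TPM). Ccl11 in these 2 mice was 18.3 TPM, level with the other controls, and 59.8 TPM, the lowest of the IF group. Control replicate 2 also had the highest mast cell and basophil marker sum (133 TPM) and the lowest stromal sum (4579 TPM) of the 20 mice.

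The reverse primer listed for PCR of Ccl11 in the study's supplement matched Ccl11 transcripts of GENCODE M21, and the forward primer matched transcripts of Ackr3, a chemokine receptor gene, and not Ccl11. The same list gives this sequence as the reverse primer of Ackr3. The PCR values were not analysed here.
Ccl11 forward primer: ccaggctctgcatagtcaaaca
Ccl11 reverse primer: tgtcaagagaggaggttgtttatgg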
